A study of Homo sapiens with 40 samples.

Results

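This comparison set the RNA that a nuclease freed from chromatin against the RNA that left the same nuclei in a soluble extract, in H1 cells on day 3 of mesoderm differentiation. The chromatin-bound nuclear extract (CBNE) and the soluble nuclear extract (SNE) each had 2 total RNA libraries, 4 of the 36 in the table. Members were the genes at a mean of 10 TPM or more over those 4 libraries, 10598 of 57939 genes. TPM is the number of reads of a gene scaled by its length to a fixed library total.

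H1 is an established human embryonic stem cell line, wild type in all groups and grown in mTeSR1 on matrigel before differentiation. Day 3 cells had been moved to IMDM with serum, given BMP4 at 10 ng/mL for 1 day and then bFGF at 2.5 ng/mL. BMP4 (bone morphogenetic protein 4) and bFGF (basic fibroblast growth factor) are secreted signals that drive mesoderm in such protocols. The fractions came from successive buffers of a kit: SNE was taken first from the nuclei, and CBNE was taken after it with calcium chloride and 300 units of micrococcal nuclease, which cuts DNA and RNA. Day 0 cells, used for a comparison of days, had had no BMP4 or bFGF. Day 5 cells, also used in some comparisons of days, had been given BMP4 at 10 ng/mL and bFGF at 2.5 ng/mL. Whether the replicates came from separate cultures is not given in the labels, so the p-values measure only how far these libraries spread, which may be technical.

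RNA in the nucleus is partly tethered to chromatin. Transcripts still being made are held there by RNA polymerase, and the nucleolus, built around the ribosomal RNA genes, holds precursor rRNA and the U3 RNA that helps to cut it. Spliced mRNA and many long noncoding RNAs are looser, and mitochondrial RNA lies outside the nucleus altogether.

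Markers were read first. In unfractionated RNA of day 3, the pluripotency factor NANOG stood at 132 and 129 TPM, against 222 and 227 on day 0. A summed list of 5 amnion and trophoblast markers stood at 114 and 121 TPM on day 3 against 10.2 and 10.1 on day 0. Lateral mesoderm markers (6 genes) summed to 339 and 362 TPM against 11.5 and 14, and 3 endothelial markers to 20.1 and 19.6 TPM against 92.6 and 97.8. BMP4 gave most of the lateral mesoderm sum (266 and 282 TPM against 8.24 and 11.1). HAND1 and TBX3 rose too, and HAND2, FOXF1 and GATA4 stayed under 1 TPM. KDR gave nearly all of the endothelial sum (19.2 and 18.8 TPM against 92.4 and 97.5). CDH5 and PECAM1, under 1 TPM on both days, were slightly higher on day 3. Of 7 primitive streak and early mesoderm markers, 2 reached the 10 TPM mean, and their list summed to 92.1 and 71.9 TPM against 41.4 and 42.1 on day 0. None of the 4 paraxial mesoderm, 4 endoderm and 3 neuroectoderm markers was a member, a filter set on the nuclear extracts. In unfractionated RNA, the endoderm list summed to 47.5 and 49.7 TPM on day 3 against 8.68 and 10.9 on day 0. CER1 gave most of the day 3 sum (31.3 and 35.99 TPM against 2.51 and 4.6). The neuroectoderm list fell to 24.5 and 29.04 TPM from 61.4 and 60.4, and the paraxial list to 13.9 and 11.9 from 18.7 and 17.3. Markers of the compartments also moved: 4 cytoplasmic mRNAs summed to 5905 and 5836 TPM in SNE and 1189 and 1092 in CBNE, and 5 mitochondrial ones to 122055 and 121590.0 TPM in SNE and 9823 and 9688 in CBNE. The part of such carried-over RNA in each result was not tested.

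Depth differed strongly between the extracts. Reads rebuilt from the TPM values numbered 19718669 and 22009617 in SNE and 1551774 and 1835687 in CBNE, and 1 read on a gene of 1 kb equalled 1.47 and 1.32 TPM in SNE and 16.8 and 13.8 TPM in CBNE. The length used in the scaling was the whole gene, introns included, so these levels hold unspliced and spliced RNA together. A gene that lies inside another on the same strand was listed at 0 in 99.5% of 8333 cases, so RN7SK, RN7SL1, RMRP and SOX2 were not analysed here. Replicates correlated at r = 0.877 in CBNE and 0.981 in SNE, and libraries of different extracts at 0.197 to 0.212, across genes, which are not independent replicates.

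Most members differed between the extracts. In limma with Benjamini-Hochberg adjustment, 2420 genes (22.8% of those tested) were higher in CBNE and 3781 (35.7%) were lower (a call needed an adjusted p under 0.05 and a log2 fold change of 1 or more in size), and 4397 were not called. The 2 libraries of an extract lay wholly above or below those of the other for 9846 of the 10598 genes. A lack of overlap, given below for single genes, therefore holds for most genes tested and does not set them apart. The median log2 fold change, CBNE minus SNE on log2(TPM + 1), was -0.38, with quartiles of -1.89 and 0.92. After each library was shifted to a common median, 3187 genes were higher and 3041 lower, so that 51.2% of calls rather than 39.0% were higher. TPM is a share of a library, and a lower share, less RNA per cell and fewer cells cannot be told apart.

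**Figure D1:**
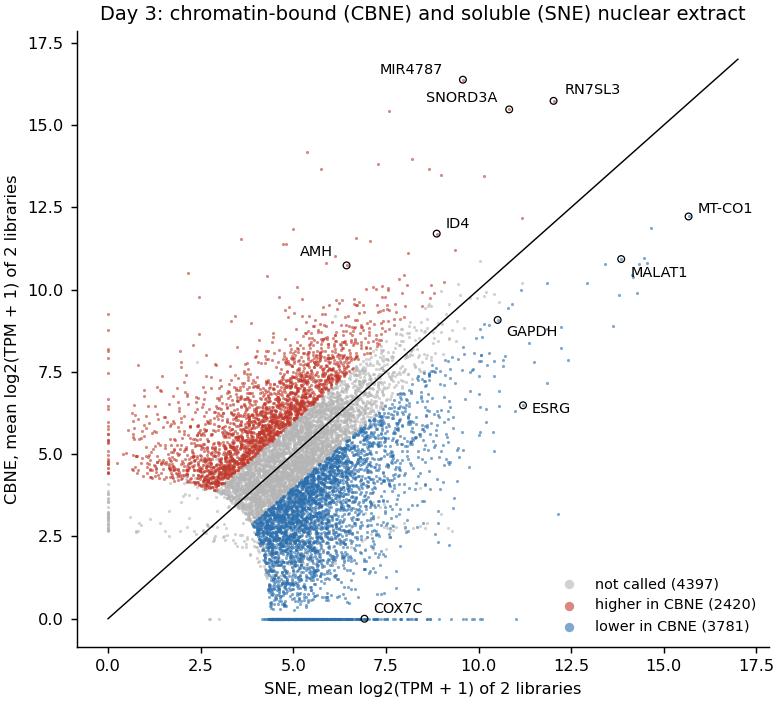
Mean TPM of each member in SNE (x axis) and in CBNE (y axis), both on a log scale, with genes called higher in CBNE, lower in CBNE and not called in separate colours. The 2420 higher and 3781 lower genes lie on either side of the diagonal.

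Reads behind the calls were uneven. Of the genes called higher, 1908 had 20 or more reads in each CBNE library and 27 had under 3 in all. Of those called lower, 453 were at 0 in both CBNE libraries, and for 223 of these fewer than 3 CBNE reads would be expected at the SNE level, so a difference was not detectable at this depth.

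By RNA class, nucleolar RNA and 7SL RNA held a larger share of the summed TPM in CBNE, and mitochondrial RNA in SNE. Totals here are of TPM, which gives short genes more weight than reads do. RNA of the mitochondrial genome made up 2.69% and 2.47% of the CBNE total and 28.8% and 28.9% of the SNE total. snoRNA and scaRNA, which guide the modification and cutting of other RNAs, made up 6.11% and 4.90% of the CBNE total and 0.312% and 0.264% of the SNE total. Genes of the 45S rDNA units, which encode precursor rRNA, made up 4.91% and 4.35% of the CBNE total and 0.0241% and 0.0374% of the SNE total. U3 genes held 99.5% of the snoRNA and scaRNA total in each CBNE library. The class has 991 genes, of which 13 snoRNA genes were tested. Genes inside another on the same strand were nearly all listed at 0, so this share covers mainly snoRNAs outside such genes. The 7SL class, named for the RNA of the signal recognition particle, made up 8.49% and 7.39% of the CBNE total and 0.814% and 0.741% of the SNE total. By rebuilt reads, mitochondrial RNA made up only 0.0981% and 0.0951% of CBNE and 0.933% of each SNE library. snoRNA and scaRNA then made up 0.162% and 0.134% of CBNE, and the 7SL class 0.0980% and 0.0872%.

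Nuclear-encoded mRNA made up 53.5% and 52.1% of the CBNE total and 57.0% and 56.9% of the SNE total. The difference of means was -4.14 percentage points, and -25.8 when mitochondrial-encoded genes were left out of the totals. lncRNA made up 4.91% and 4.99% of the CBNE total and 7.75% and 7.73% of the SNE total. By gene, lncRNAs went both ways. Of 959 tested, 306 (31.9%) were higher in CBNE and 314 (32.7%) lower, with a median log2 fold change of -0.21. Among all genes tested, 22.8% were higher and 35.7% lower. microRNA genes reached a mean of 15.5% ± 3.56 (SD, n = 2) of the CBNE TPM, but only 0.0392% and 0.0519% of its reads, because their spans are short. MIR4787 and CR392039.1 alone held 87.3% and 90.5% of the class in CBNE. CR392039.1 (chr21:8987370-8987430) lies shortly after MIR3648-2, a gene counted with the 45S rDNA units, on the same strand. It was counted with the microRNA genes by its annotated type, so the division between these classes is uncertain. In an exact two-sided permutation test of the extract labels within days 0, 3 and 5, 8 of the 9 classes had p = 0.00926, the smallest the design allows, and an adjusted p of 0.0104. Pseudogenes did not pass the exact test (p = 0.333). An exact permutation test of day 3 alone, with 2 libraries against 2, cannot go below p = 0.333.

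**Figure D2:**
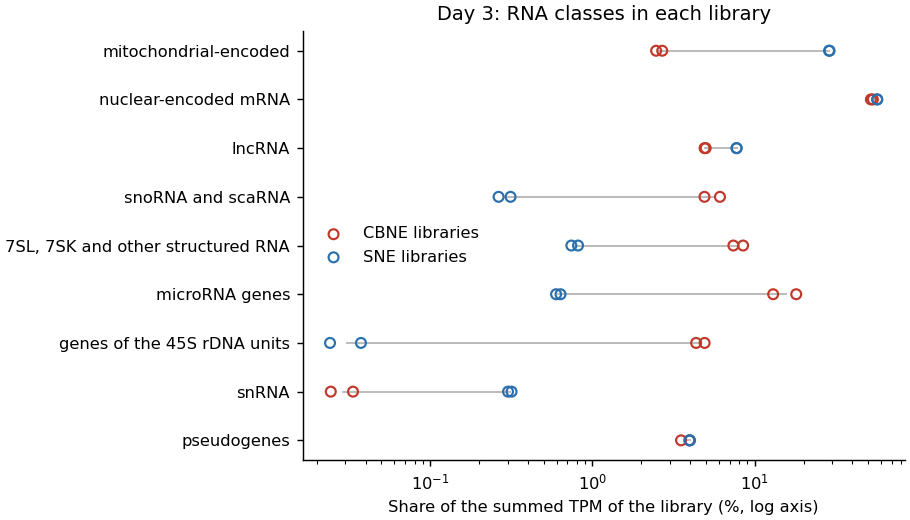
Share of the summed TPM (percent) of each RNA class in each day 3 CBNE and SNE library. Mitochondrial RNA stands at 28.8% (mean) in SNE and at 2.58% (mean) in CBNE, and the snoRNA, 7SL, microRNA and rDNA classes stand higher in CBNE.

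U3 RNA, a box C/D snoRNA that pairs with precursor rRNA during its processing, was higher in CBNE. SNORD3A stood at 1989 and 1658 TPM in SNE and at 50771 and 40873 TPM in CBNE (log2 fold change 4.65 ± 0.17, adjusted p = 0.000416, limma with Benjamini-Hochberg adjustment), and the extracts did not overlap. It rested on 944 and 878 reads in SNE and 2110 and 2068 in CBNE. The other U3 copies went the same way, SNORD3B-1 by 7.96, SNORD3C by 6.84 and SNORD3B-2 by 4.89 on the log2 scale. The U3 copies are near-identical, so how reads were divided among them is uncertain. A SNORD3A transcript of 217 bases (GENCODE 29), from the gene at chr17:19188016-19188714, plus strand, is shown because it carries this result. The gene is longer than this transcript and holds others, and the transcript is printed with the letters TGATGA in capitals:
SNORD3A: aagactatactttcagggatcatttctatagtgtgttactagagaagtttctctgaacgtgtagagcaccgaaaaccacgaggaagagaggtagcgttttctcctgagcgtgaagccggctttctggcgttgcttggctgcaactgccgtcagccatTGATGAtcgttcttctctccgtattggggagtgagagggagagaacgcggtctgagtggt

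By gene, 5 of 13 tested snoRNA genes were higher and 8 lower, and 7 of these 8 were under the detectable level in CBNE. Of 5 tested processing snoRNAs, 4 were higher and 1 was lower. The lower one, SNORD13, stood at 99.2 and 12.7 TPM in SNE and at 0 and 0 TPM in CBNE, from 7 and 1 reads in SNE and 0 and 0 in CBNE, which is also under the detectable level. RN7SL3, a copy of the 7SL RNA, stood at 4715 and 3681 TPM in SNE and at 55128 and 53968 TPM in CBNE (log2 fold change 3.71 ± 0.15, adjusted p = 0.000490), and its near-identical copies make the division of reads uncertain. Of 37 tested genes annotated as miscellaneous RNA, the type behind the 7SL class, 8 (21.6%) were higher and 14 (37.8%) lower. These shares are near those of all genes tested (22.8% and 35.7%), and 13 of the 14 were under the detectable level in CBNE. In a short list of structured RNAs, VTRNA1-3, a vault RNA, was the only other gene tested. It stood at 99.3 and 222 TPM in SNE and at 0 and 0 TPM in CBNE, and at its SNE level fewer than 3 CBNE reads would be expected, so a difference was not detectable.

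Of 4 tested genes annotated in the 45S rDNA units, 3 were higher. FP236383.3 stood at 168 and 146 TPM in SNE and at 16303 and 12766 TPM in CBNE and FP671120.4 at 63.7 and 43.2 TPM in SNE and at 14979 and 11353 TPM in CBNE, log2 fold changes of 6.52 and 7.93. MIR3648-2, a microRNA gene inside the unit, stood at 8.18 and 183 TPM in SNE and at 17567 and 19265 TPM in CBNE. RNA5-8SN1 was not called, with 1 read in all. These units are repeated in the genome, so the copy of origin is uncertain. CR392039.1, a clone-named microRNA gene shortly after MIR3648-2 on the same strand, was among the most abundant in CBNE. It stood at 241 and 151 TPM in SNE and at 24539.9 and 80627 TPM in CBNE. Its CBNE libraries differed widely from each other.

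microRNA genes went both ways, as did all genes tested (22.8% higher and 35.7% lower). Of 74 tested, 17 were higher and 35 lower in CBNE. All 35 lower ones were at 0 in both CBNE libraries, and 32 of them were under the detectable level there. Only 7 of the 17 higher ones had 10 or more reads. A single read on 80 bases equalled 210.2 TPM in CBNE replicate 1 and 18.4 TPM in SNE replicate 1, so single reads weigh heavily. Total RNA reads on a hairpin gene do not show whether they came from the microRNA, its precursor or a longer transcript. The hairpins of MIR4787, MIR23A and MIR27A (higher) and of MIR1244-2 and MIR3685 (lower) are shown with G and C in capitals (RefSeq, GRCh38.p14), as examples of the genes called in each direction:
MIR4787: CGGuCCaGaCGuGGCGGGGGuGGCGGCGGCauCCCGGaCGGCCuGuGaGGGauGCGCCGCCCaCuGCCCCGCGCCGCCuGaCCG
MIR23A: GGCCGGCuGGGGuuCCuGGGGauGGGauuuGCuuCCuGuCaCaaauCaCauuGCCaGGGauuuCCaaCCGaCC
MIR27A: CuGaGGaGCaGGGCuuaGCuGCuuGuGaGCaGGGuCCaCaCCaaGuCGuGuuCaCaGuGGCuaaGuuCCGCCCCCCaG
MIR1244-2: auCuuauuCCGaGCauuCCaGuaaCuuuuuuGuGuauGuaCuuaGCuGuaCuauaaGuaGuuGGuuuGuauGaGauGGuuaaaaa
MIR3685: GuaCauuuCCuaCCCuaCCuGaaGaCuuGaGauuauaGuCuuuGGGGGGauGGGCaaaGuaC

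MIR4787 (chr3:50675080-50675163, plus strand) was the most abundant microRNA gene in CBNE. It stood at 824 and 707 TPM in SNE and at 88503 and 81905 TPM in CBNE (log2 fold change 6.80 ± 0.11, adjusted p = 0.000271), from 47 and 45 reads in SNE and 442 and 498 in CBNE, and the extracts did not overlap. The gene ends 77 bases before the annotated start of DOCK3 on the same strand. GC made up 79.8% of its hairpin.

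MIR23A (chr19:13836587-13836659, minus strand) and MIR27A (chr19:13836440-13836517, minus strand) lie in 1 cluster. MIR23A had 2 and 1 reads in SNE and 15 and 11 in CBNE (log2 fold change 6.58), and MIR27A had 1 and 2 reads in SNE and 10 and 19 in CBNE (6.68). Their mature 3p arms, shown with the seed (bases 2 to 8) in capitals because the seed picks a microRNA's targets, do not share a seed:
hsa-miR-23a-3p: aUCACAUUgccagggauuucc
hsa-miR-27a-3p: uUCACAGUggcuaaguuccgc

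The largest microRNA fold changes rested on few reads. MIR4665 was at 0 in both SNE libraries and at least 25.4-fold higher in CBNE, against a floor of 3 reads over both SNE libraries. By the same floor MIR4689 was at least 18.2-fold, MIR200A at least 14.5-fold and MIR212 at least 14.5-fold higher. MIR3187 had 0 and 1 reads in SNE and 4 and 11 in CBNE. MIR124-3 and MIR4466 had 1 read in each CBNE library and none in SNE. On the lower side MIR1244-2 (chr5:118974586-118974670) was at least 1.80-fold and MIR3685 (chr12:95309923-95309984) at least 1.13-fold lower, both at 0 in CBNE.

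Of 8896 protein-coding genes, 1971 (22.2%) were higher in CBNE and 3133 (35.2%) lower, shares close to those of all genes tested. Those named in this and the next paragraph were chosen after their values were seen, as the most changed and the most abundant with enough reads. AMH, which encodes anti-Mullerian hormone, stood at 89.0 and 82.6 TPM in SNE and at 1709 and 1699 TPM in CBNE (log2 fold change 4.30 ± 0.05, adjusted p = 0.000271, limma with Benjamini-Hochberg adjustment). HES4, a Notch-responsive repressor, stood at 32.8 and 40.3 TPM in SNE and at 889 and 787 TPM in CBNE (4.49). WDR90, a protein with WD repeats, stood at 30.9 and 26.6 TPM in SNE and at 703 and 713 TPM in CBNE (4.58). The extracts did not overlap for any of these. The largest changes were at TMDD1 (7.31), MMP23B (6.04, a matrix metalloproteinase), RNF225 (5.73), C1QTNF12 (5.66), INAFM1 (5.16) and FUOM (5.12). C8orf82, RHBDL1, CITED4, PRR7, MEGF6 and ANTKMT followed, at 4.75, 4.55, 4.40, 4.35, 4.27 and 4.23.

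Abundant mRNAs were among the higher ones too. CCN2, a matricellular growth regulator, stood at 2338 and 2282 TPM in SNE and at 4912 and 4385 TPM in CBNE (1.01), close to the limit for a call. PTMA, which encodes prothymosin alpha, stood at 659 and 657 TPM in SNE and at 2414 and 2338 TPM in CBNE (1.85). PTBP1, a splicing regulator, stood at 254 and 252 TPM in SNE and at 1404 and 1387 TPM in CBNE (2.46). FGFR3, a fibroblast growth factor receptor, was higher by 3.06 on the log2 scale, AGRN, a basement membrane proteoglycan, by 2.70, and H2AX, a histone variant that marks DNA breaks, by 2.09. SOX4, a transcription factor, and UCHL1, a deubiquitinase, were higher by 1.16 and 1.44.

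Every mitochondrial-encoded mRNA was lower in CBNE, 13 of 13, with a median of -3.75. MT-CO1, a catalytic subunit of cytochrome c oxidase, stood at 53202 and 50988 TPM in SNE and at 4898 and 4659 TPM in CBNE (log2 fold change -3.45 ± 0.07, adjusted p = 0.000276). MT-ND2, a subunit of complex I, stood at 12273 and 13054 TPM in SNE and at 484 and 464 TPM in CBNE (-4.74). MT-ND5, another complex I subunit, stood at 25691 and 25969.5 TPM in SNE and at 3954 and 3545 TPM in CBNE (-2.79), and the extracts did not overlap for any of these. MT-ND4L differed least of the 13 (-2.64). MT-CO2, MT-CO3 and MT-ND4 changed by -3.75, -3.50 and -3.54. MT-ATP8 had 625 and 728 reads in SNE and 1 and 0 in CBNE.

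Of 19 tested mitochondrial tRNAs, 17 were lower and none higher. MT-TD, the tRNA for aspartate, stood at 2535 and 1708 TPM in SNE and at 0 and 0 TPM in CBNE, at least 6.27-fold lower. MT-TK was at least 3.27-fold, MT-TM 3.24-fold, MT-TL2 2.81-fold, MT-TA 2.51-fold, MT-TR 2.17-fold and MT-TI 1.87-fold lower, all at 0 in both CBNE libraries.

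Of 14 tested lncRNAs known for their nuclear place, 9 were lower in CBNE and 5 were not called (median -1.81). Less the median of their GC decile, the list stood at -0.47. MALAT1, a lncRNA of nuclear speckles, stood at 15124 and 14416 TPM in SNE and at 2033 and 1865 TPM in CBNE (-2.92 ± 0.07, adjusted p = 0.000293). NEAT1, the scaffold of paraspeckles, stood at 1057 and 1021 TPM in SNE and at 182 and 152 TPM in CBNE (-2.64), and neither gene's extracts overlapped. TUG1 changed by -4.29, SNHG14 by -2.87, FTX by -2.11, KCNQ1OT1, an imprinted antisense transcript, by -1.52 and JPX by -1.22. PCAT6 (1.41), FIRRE (0.94), PVT1 (0.47), OIP5-AS1 (-0.29) and NUTM2A-AS1 (-0.48) were not called.

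lncRNAs of stem cells and mesoderm were also lower in CBNE. Of 7 tested, 6 were lower (median -4.56). ESRG, a transcript of an endogenous retrovirus expressed in pluripotent cells, stood at 2309.6 and 2396 TPM in SNE and at 93.5 and 83.9 TPM in CBNE (-4.72). MIR302CHG, the host of the miR-302 cluster, stood at 873 and 851 TPM in SNE and at 28.2 and 19.3 TPM in CBNE (-5.15). LNCPRESS2 and LINC00678 changed by -4.56 and -4.48, and LNCPRESS1, at 202 and 195 TPM in SNE and at 314 and 195 TPM in CBNE, was not called. PCAT14, chosen after its values were seen, stood at 3703 and 3708 TPM in SNE and at 146 and 138 TPM in CBNE (-4.70).

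Host genes of snoRNAs were mostly lower in CBNE. Of 19 tested host lncRNAs, 14 were lower and 1 higher (median -2.94). SNHG1 stood at 1359.8 and 1359 TPM in SNE and at 38.5 and 28.1 TPM in CBNE (-5.32), and ZFAS1, which the imprinted gene list also holds, at 602 and 598 TPM in SNE and at 23.0 and 29.9 TPM in CBNE (-4.46). The higher one was SNHG7, at 39.7 and 41.8 TPM in SNE and at 271 and 257 TPM in CBNE (2.67). Spliceosomal snRNA genes had too few reads to read: 6 of 9 were lower, all under the detectable level in CBNE. Of 12 imprinted genes, 2 (16.7%) were higher (SNRPN and CDKN1C) and 5 (41.7%) lower, among them PEG10. These shares are near those of all genes tested (22.8% and 35.7%). The calls of SNRPN and CDKN1C were each lost under 2 alternatives.

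Most mRNA groups with housekeeping roles were lower in CBNE. Of cytosolic ribosomal protein mRNAs, 75 were tested, and 2 were higher and 51 lower in CBNE (median log2 fold change -2.42). The median of all genes was -0.38. RPLP0, a ribosomal stalk protein, stood at 1389 and 1363 TPM in SNE and at 155 and 173 TPM in CBNE. RPL34 was one of the higher ones, at 111 and 113 TPM in SNE and at 494 and 467 TPM in CBNE (2.09). In a list of histone genes named by their clusters and H1, which does not hold H2AX, 52 were tested, and 0 were higher and 33 lower in CBNE (median log2 fold change -2.77). H1-5, a linker histone chosen after its values were seen, stood at 1477 and 1539 TPM in SNE and at 74.1 and 101 TPM in CBNE, and H4C13 was at least 2.91-fold lower, at 0 in CBNE. H1-10 was not called.

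In the splicing factor list, which does not hold PTBP1, 45 were tested, and 0 were higher and 30 lower in CBNE (median log2 fold change -1.99). HNRNPH3 stood at 469 and 469.8 TPM in SNE and at 16.8 and 19.5 TPM in CBNE (-4.62), and HNRNPH2 was at least 16.5-fold lower. HNRNPA2B1, an RNA-binding protein also chosen after its values were seen, stood at 1485 and 1493 TPM in SNE and at 113 and 125 TPM in CBNE. Of glycolysis and translation factor mRNAs, 26 were tested, and 2 were higher and 18 lower in CBNE (median log2 fold change -1.74). GAPDH, a glycolytic enzyme, stood at 1459 and 1467 TPM in SNE and at 582 and 500.1 TPM in CBNE (-1.44 ± 0.09, adjusted p = 0.00114), EEF1A1, an elongation factor, fell to 322 and 347 TPM in CBNE, and EIF4A2 changed by -4.24. Against the rest, TPI1 (1.05) and EEF1D (2.14) were higher.

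Nuclear-encoded respiratory chain mRNAs were more often lower in CBNE (58.8%) than all genes tested (35.7%), and less often higher (14.7% against 22.8%). Of these, 34 were tested, and 5 were higher and 20 lower in CBNE (median log2 fold change -1.36). COX7C, a subunit of cytochrome c oxidase, stood at 117 and 123 TPM in SNE and at 0 and 0 TPM in CBNE, at least 16.2-fold lower. COX5A stood at 18.7 and 17.2 TPM in SNE and at 86.0 and 95.5 TPM in CBNE (2.28) and ATP5F1D changed by 2.41, both higher. Of mitochondrial ribosomal protein mRNAs, 54 were tested, and 4 were higher and 28 lower in CBNE (median log2 fold change -1.33). MRPS25 changed by -3.26 and MRPL28 by 1.37.

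Of cell cycle mRNAs, 38 were tested, and 1 were higher and 23 lower in CBNE (median log2 fold change -1.36). CDK1, the mitotic kinase, stood at 162 and 167 TPM in SNE and at 3.05 and 3.34 TPM in CBNE (-5.30), and CCNB1, its cyclin partner, changed by -4.20. Of secretory and membrane protein mRNAs, 46 were tested, and 5 were higher and 30 lower in CBNE (median log2 fold change -1.28). SCD, a fatty acid desaturase, stood at 503 and 508 TPM in SNE and at 40.8 and 27.3 TPM in CBNE (-3.88). LAMA5, a laminin chain, stood at 188 and 183 TPM in SNE and at 1063 and 1054 TPM in CBNE (2.51) and COL18A1, a basement membrane collagen, changed by 2.02, both higher. Of long cytoskeletal mRNAs, 31 were tested, and 2 were higher and 18 lower in CBNE (median log2 fold change -1.07), and of short ones, 27 were tested, and 1 were higher and 15 lower in CBNE (median log2 fold change -1.30). AHNAK changed by -2.81, PLEC by 1.23 and TPM2 by 1.87. Among abundant genes chosen after their values were seen, HSP90AB1 and HSPA8, chaperones, changed by -2.98 and -2.73, and FLNA and FLNC, actin cross-linkers, by -1.15 and -1.32.

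mRNAs of regulators went both ways, as did all genes tested, of which 22.8% were higher and 35.7% lower. Of pluripotency mRNAs, 28 were tested, and 5 were higher and 14 lower in CBNE (median log2 fold change -0.90). TDGF1, a co-receptor of NODAL, stood at 87.9 and 78.7 TPM in SNE and at 4.24 and 3.48 TPM in CBNE (-4.12), from 2 reads in each CBNE library. NANOG stood at 76.7 and 80.7 TPM in SNE and at 26.7 and 46.3 TPM in CBNE (-1.14 ± 0.31, adjusted p = 0.0382), and its call was lost under 5 alternatives: at -0.75 without CBNE replicate 1, with an adjusted p of 0.189 without SNE replicate 1 and 0.206 without SNE replicate 2 (limma), under a common median and with a pseudocount of 10. TERT, the catalytic subunit of telomerase, stood at 10.5 and 9.79 TPM in SNE and at 88.3 and 76.1 TPM in CBNE (2.90) and was higher. UTF1, with 9 and 7 CBNE reads, and FGF4 (2.24) were also higher. Of primitive streak and mesoderm mRNAs, 20 were tested, and 5 were higher and 5 lower in CBNE (median log2 fold change -0.14). ID4, an inhibitor of bHLH factors and a target of BMP signalling, stood at 487 and 448 TPM in SNE and at 3278 and 3379.5 TPM in CBNE (2.83), and its relative ID2, from 6 reads in each CBNE library, changed by -3.46. ID1, chosen after its value was seen, changed by -1.37. BMP4 itself, at 204 and 210.3 TPM in SNE and at 139.8 and 159 TPM in CBNE, was not called.

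Of immediate early mRNAs, 24 were tested, and 7 were higher and 6 lower in CBNE (median log2 fold change 0.17). JUND stood at 285 and 264 TPM in SNE and at 2203 and 2232 TPM in CBNE (3.01) and FOSL1 at 42.0 and 37.2 TPM in SNE and at 410.4 and 412 TPM in CBNE (3.35), both subunits of AP-1. MCL1, an anti-apoptotic protein, changed by -2.19. Of chromatin regulator mRNAs, 54 were tested, and 9 were higher and 14 lower in CBNE (median log2 fold change -0.20). Under a common median, 14 were higher and 10 lower, so the direction of that group depends on the scaling. SMARCA4, a remodelling ATPase, changed by 2.03, and SMARCA5, another, by -3.52. RAD21, a cohesin subunit, changed by -2.42 and SETD1A, a histone methyltransferase, by 2.12. Of KRAB zinc finger mRNAs, 45 were tested, and 6 were higher and 20 lower in CBNE (median log2 fold change -0.73), and of all ZNF genes, 317 were tested, and 49 were higher and 133 lower in CBNE (median log2 fold change -0.72). ZNF43 (1.65) and ZNF398 (1.99) were higher, and ZNF117 (-3.89) lower.

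**Figure D3:**
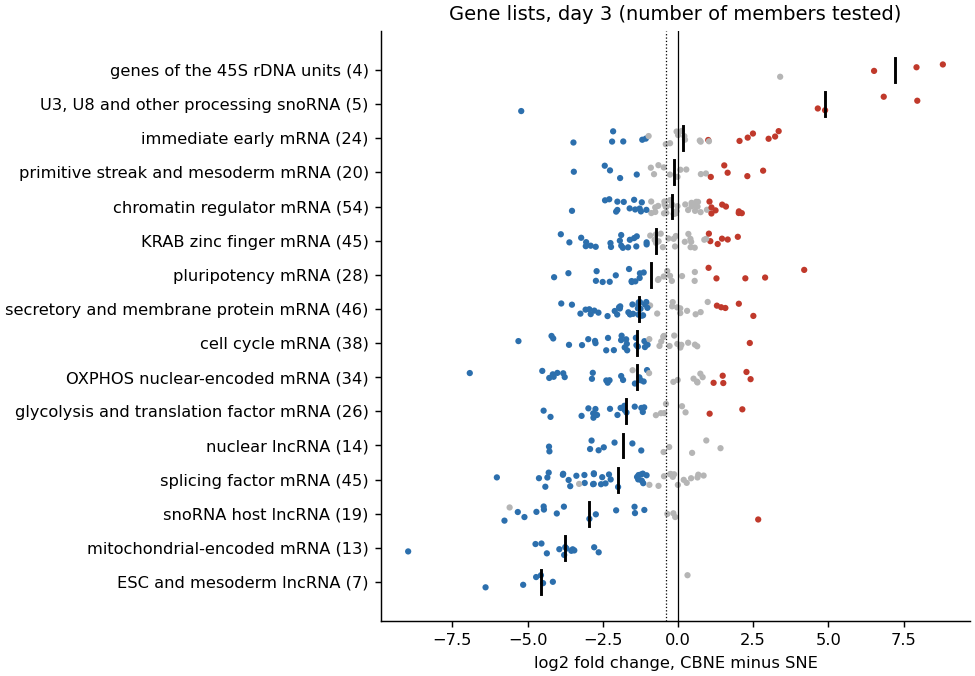
Log2 fold change, CBNE minus SNE, of the tested members of selected gene lists, with the list medians. The medians of the lists shown run from -4.56 for lncRNAs of stem cells and mesoderm to 7.22 for genes of the 45S rDNA units.

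The fold change followed the base content of the transcripts. Across 8883 nuclear protein-coding genes, Spearman's rho between transcript GC content and log2 fold change was 0.58, and between gene span and log2 fold change -0.00. Genes are not independent replicates, and all points share the same libraries. In the lowest decile by GC (30.2% to 38.3%), 19 genes were higher and 615 lower of 889, with a median of -1.81. In the highest decile (62.3% to 76.8%), 714 were higher and 10 lower of 889, with a median of 2.03. The rho was 0.61 in 258 genes without introns, 0.60 in 8210 genes with 20 or more CBNE reads expected, and 0.50 in 6335 genes at 10 TPM in each extract. It was 0.61 in 959 lncRNA genes. Less the median of their GC decile, KRAB zinc finger mRNAs stood at 0.37 and chromatin regulators at 0.42, the other direction from their unadjusted medians. The ZNF list then stood at -0.05, splicing factors at -0.99, cytosolic ribosomal proteins at -2.07, histones at -3.05 and stem cell and mesoderm lncRNAs at -3.66.

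The first 150 coding bases of 3 genes higher in CBNE (AMH, chr19:2249309-2252073, plus strand; HES4, chr1:998962-1000172, minus strand; ID4, chr6:19837386-19840684, plus strand) and 3 lower (COX7C, chr5:86617904-86620962, plus strand; SAT1, chrX:23783173-23786226, plus strand; TDGF1, chr3:46574534-46582463, plus strand) are shown so that their base content can be seen, with G and C in capitals. Coordinates are of the whole gene on hg38, and sequences are from GENCODE 29. GC made up 73.5%, 74.4% and 73.3% of the whole coding sequence of AMH, HES4 and ID4, and 47.1%, 45.6% and 54.6% of that of COX7C, SAT1 and TDGF1. ID4 is GC-rich in its coding sequence only: over the whole transcript, the measure used above, its GC content was 47.0%, against 44.0% for TDGF1, although the genes changed in opposite directions. SAT1, a polyamine acetyltransferase chosen after its values were seen, stood at 121 and 121 TPM in SNE and at 0 and 0 TPM in CBNE, at least 16.2-fold lower.
AMH: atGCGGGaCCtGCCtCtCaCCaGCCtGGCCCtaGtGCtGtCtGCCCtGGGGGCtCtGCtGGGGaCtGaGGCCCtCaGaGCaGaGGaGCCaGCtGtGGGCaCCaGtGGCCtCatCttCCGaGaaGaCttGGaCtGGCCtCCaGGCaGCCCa
HES4: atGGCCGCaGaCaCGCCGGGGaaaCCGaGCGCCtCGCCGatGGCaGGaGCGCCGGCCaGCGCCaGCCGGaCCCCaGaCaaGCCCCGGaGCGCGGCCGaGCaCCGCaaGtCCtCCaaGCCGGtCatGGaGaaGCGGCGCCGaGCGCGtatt
ID4: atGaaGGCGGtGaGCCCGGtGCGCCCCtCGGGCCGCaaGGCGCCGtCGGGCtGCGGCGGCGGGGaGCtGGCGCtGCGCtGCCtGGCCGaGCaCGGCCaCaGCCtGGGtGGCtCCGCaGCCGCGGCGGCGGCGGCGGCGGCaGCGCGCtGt
COX7C: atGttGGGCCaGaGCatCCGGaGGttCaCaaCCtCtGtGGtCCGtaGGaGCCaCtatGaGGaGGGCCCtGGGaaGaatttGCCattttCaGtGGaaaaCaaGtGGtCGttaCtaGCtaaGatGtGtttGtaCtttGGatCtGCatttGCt
SAT1: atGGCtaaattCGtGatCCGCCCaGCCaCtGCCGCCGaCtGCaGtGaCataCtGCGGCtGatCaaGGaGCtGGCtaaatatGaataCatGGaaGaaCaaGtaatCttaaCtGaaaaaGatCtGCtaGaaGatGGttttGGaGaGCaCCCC
TDGF1: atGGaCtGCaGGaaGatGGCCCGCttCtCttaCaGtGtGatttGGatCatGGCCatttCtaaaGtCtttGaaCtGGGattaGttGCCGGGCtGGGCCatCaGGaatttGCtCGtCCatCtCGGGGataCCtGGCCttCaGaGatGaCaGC

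Medians also differed between chromosomes. Genes of chromosome 19 had a median log2 fold change of 1.06, with a median transcript GC of 59.0% (355 higher and 94 lower of 696). Chromosomes 22 and 16 followed at 0.77 and 0.73. At the other end stood chromosome 13 at -1.24 with a GC of 41.6%, the X chromosome at -1.21 with a GC of 46.9%, and chromosome 6 at -1.16. GC content alone did not order them: chromosomes 10 and 18, with GC contents of 44.6% and 43.0%, stood at -0.45 and -0.66. Less the median of its GC decile, the X chromosome stood at -0.83, with 20 genes higher and 147 lower of 294.

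**Figure D4:**
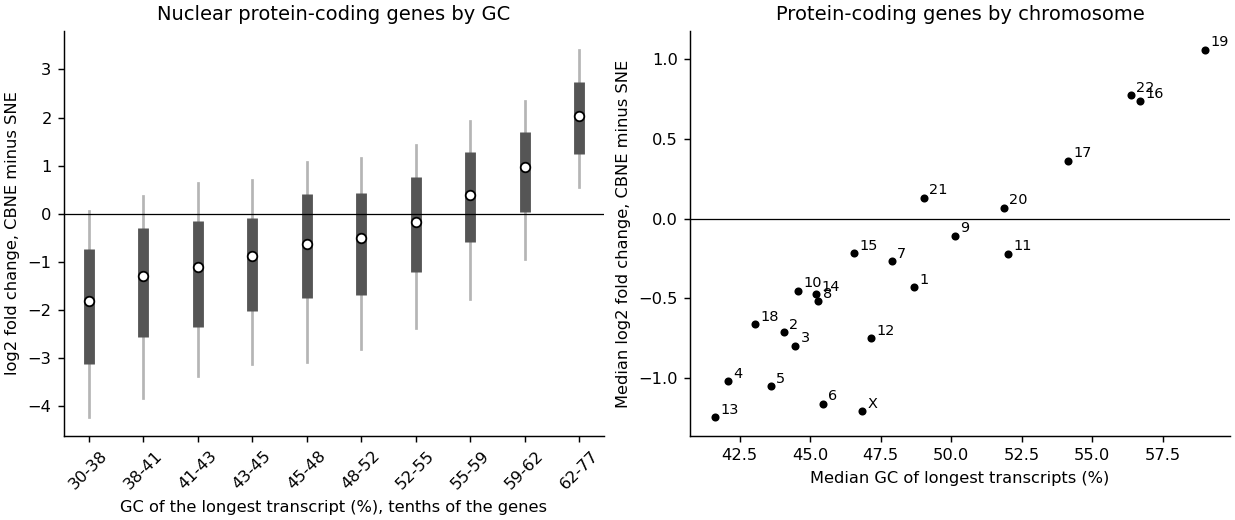
Log2 fold change, CBNE minus SNE, by decile of transcript GC content (percent) and by chromosome. The median goes from -1.81 in the lowest GC decile to 2.03 in the highest, and from -1.24 on chromosome 13 to 1.06 on chromosome 19.

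The difference between CBNE and SNE was then compared between day 3 and day 0 with the interaction term of the limma fit. For 2479 genes (23.4%) it was higher on day 3, and for 330 (3.11%) lower, with a median of 0.69. After a shift to a common median, 508 were higher and 795 lower, so the direction of the counts depends on the scaling. Day 0 CBNE libraries held 657367 and 522925 rebuilt reads, fewer than those of day 3. The genes tested were those at a mean of 10 TPM or more over the 4 day 3 libraries, whatever their day 0 level. That filter favours genes high on day 3, and its part in the counts and the median was not tested. Mitochondrial RNA made up 7.44%, 2.58% and 7.5% of CBNE on days 0, 3 and 5 in that order, and snoRNA 15.2%, 5.51% and 23.4%. microRNA genes made up 6.24%, 15.5% and 2.38%, and MIR4787 and CR392039.1 held 82.1% and 89.8% of that class in the day 0 CBNE libraries and 72.1% and 59.7% in those of day 5.

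Of 13 mitochondrial mRNAs, 11 were further to the SNE side on day 3 than on day 0 (3.11% of all genes tested were), and MT-ND6 and MT-ATP8 did not pass. The difference of differences was -1.80 for MT-CO1, -2.17 for MT-CO2 and -2.78 for MT-ND5 on the log2 scale. SNORD3A changed by -1.45. MIR4787 went the other way, by 1.94. Those with the smallest adjusted p, MT-TR, MT-TW, MT-TE, MIR298 and MIR4746, rested on few CBNE reads, from 0 to 7 in each day 3 library.

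**Figure D5:**
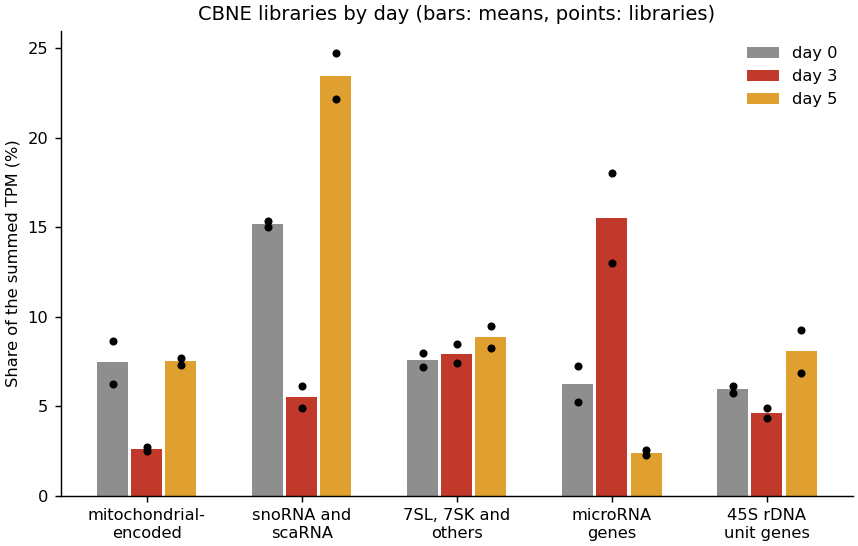
Share of the summed TPM (percent) of RNA classes in the CBNE libraries of days 0, 3 and 5. Mitochondrial RNA and snoRNA are lowest on day 3, and microRNA genes highest.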

How the data were processed

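Total RNA of H1 cells was measured in 36 libraries, in pairs that share a day and a fraction, and the titles gave the groups. The authors deposited TPM values with a column for each library. Per the submitters' processing notes, the tools were Salmon 1.3.0, featureCounts 1.6.2, GATK and HISAT2 2.0.5, on hg38; which tool made the table is not given in the sources used here. From the values, deposited TPM times gene span (GENCODE 29, introns included) gave whole reads within 0.05 for 98.4% to 98.8% of values, against about 10% by exonic length. Those rebuilt reads did not enter the main fit. They served for depth, reads printed with genes, detectable levels and at-least folds. The choice of some named genes, shares of reads, read filters and voom also rested on them.

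Genes at a mean of 10 TPM or more were fitted on log2(TPM + 1) with R 4.3.3 and limma 3.58.1, using a robust variance prior with a trend and 2 residual degrees of freedom. Calls needed p under 0.05 after Benjamini-Hochberg adjustment and a log2 fold change of 1 or more in size. Fold changes are on the log2(TPM + 1) scale and understate changes of low genes. Errors given with log2 values are standard errors. The script was tested on simulated data. Members, lists and tests were chosen with earlier results of these data known. Named genes were the 10 most changed and 5 most abundant in each direction, up to 4 of each list by size of change, and reference genes; the protein-coding genes ranked by reads or level were added after values were seen. Alternatives covered the pseudocount, filters, scaling, variance prior, replicate block and leaving out each library; voom on rebuilt reads, a filter on rebuilt reads and shares of rebuilt reads were chosen after seeing the data. Intervals and floors (3 reads) cover counting error only.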

Additional observations from a re-analysis of the deposited data

Results flagged for a closer look

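For these genes the CBNE minus SNE difference was called different between day 3 and day 0 by the interaction term in limma. On the log2 scale, day 3 minus day 0, mitochondrial mRNAs stood at -2.17 for MT-CO2, -2.54 for MT-ND2, -2.78 for MT-ND5, -1.80 for MT-CO1, -2.20 for MT-ND4, -2.27 for MT-CO3. U3 genes stood at -1.45 for SNORD3A and -1.11 for SNORD3B-1. MIR4787 stood at 1.94. The others had at most 7 reads in any day 3 CBNE library. Of these, MT-TA (-1.07), MT-TK (-2.27) and MT-TL2 (-1.07) were at 0 in CBNE on both days, so their values hold only the change of the SNE level and show nothing about CBNE. MT-TR (-11.01) was at 0 in day 3 CBNE. MT-TW (10.38), MT-TE (8.19), MIR298 (8.98), MIR4665 (11.46), MIR4746 (9.29) and MIR4466 (8.15) were at 0 in day 0 CBNE, where libraries were shallower.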

How the results depend on the processing

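In the 19 alternatives to the day 3 comparison, no gene took the opposite call except 22 under voom on rebuilt reads, where 2642 genes were higher and 3775 lower. Higher genes numbered 1605 and lower genes 1564 at a mean of 10 TPM in each extract, 1059 and 987 at a mean of 50 TPM, and lower genes 6977 at 1 TPM in at least 2 libraries. Leaving out 1 library gave 2015 to 2478 higher and 2747 to 4032 lower. With the replicate number as a block, 2414 were higher and 3791 lower. Same-numbered libraries did not deviate together (r = 0.007 over 9606 genes). For genes with 5 to 1000 reads over both CBNE libraries, the replicates' variance was 1.07 to 1.17 times that of counting error. With so little spread beyond counting, the check cannot decide whether same-numbered libraries belong together. For day 3 minus day 0, a common median gave 508 higher and 795 lower, the replicate block 1926 and 227, and leaving out 1 library 1745 to 3599 and 193 to 506; without day 0 CBNE replicate 1 the lower count was 506, and without any 1 SNE library of day 0 or day 3 it was 193 to 225. The cause was not tested.

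Under voom on rebuilt reads, log2 fold changes turned to 1.27 for RNU5F-1, 0.70 for RNU4-1, 0.64 for RNU6-2 and 0.73 for SNORD13, which have few reads in any library. Differences in class share, CBNE minus SNE in percentage points, were computed also as a share of rebuilt reads, which weights long genes more. They were then -0.836 for mitochondrial RNA, -1.37 for mRNA, -1.70 for lncRNA, 0.143 for snoRNA, 0.0851 for 7SL, 0.0439 for microRNA genes, 3.22 for rDNA genes, -0.00111 for snRNA and 0.376 for pseudogenes. Without mitochondrial genes they were -25.8 for mRNA, -5.79 for lncRNA, -0.405 for snRNA and -1.76 for pseudogenes. Over genes at 10 TPM or more they were -27.5 for mitochondrial RNA, -2.49 for lncRNA, -0.221 for snRNA and 0.134 for pseudogenes. Of the values of single genes and lists under the alternatives, 4574 kept their direction and call, 96 lost a call, 34 gained one and 97 list counts moved. Among genes given as called in the report, calls lost under 1 or more alternatives were those of CCN2, CCNB1, CDKN1C, FLNA, FLNC, ID1, JPX, KCNQ1OT1, MIR3187, MIR3648-2, MIR4689, MIR4746, MRPL28, MT-ATP8, MT-TW, NANOG, PLEC, SNORD13, SNRPN, SOX4, TPI1 and VTRNA1-3. The shallow CBNE libraries limit calls for short and low genes.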

Other observations

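Across the 12 day 3 libraries, Spearman's rho between transcript GC content and TPM of protein-coding genes was 0.43 and 0.42 in CBNE, 0.21 and 0.23 in the pellet extract, 0.12 and 0.12 in the cytoplasmic extract, 0.05 and -0.01 in the membrane extract, -0.03 and -0.05 in unfractionated RNA, and -0.25 and -0.24 in SNE. The mean GC content weighted by reads was 49.6% in CBNE and 45.5% in SNE. On day 0 and day 5 the rho between GC content and the CBNE minus SNE fold change was 0.54 and 0.38.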
